A study of Mus musculus with 9 samples.

Results

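The genes described here encode the core proteins of the spliceosome that bind U1 and U2 small nuclear RNA, the serine- and arginine-rich (SR) splicing factors and the heterogeneous nuclear ribonucleoproteins (hnRNPs). They were chosen by symbol from the count table: every row that starts with Snrp, Srsf and a digit, Sf3a or Sf3b and a digit, or Hnrnp, without the pseudogene symbols that hold -ps. The choice gave 52 genes of 24756 rows, which fall into 8 Sm core proteins, 2 proteins of the U1 particle, 11 proteins of the U2 particle and its SF3A and SF3B complexes, 11 SR proteins and 20 hnRNPs. Of these, 50 had enough counts to be tested. Snrpn and Srsf12 had 0 counts in each of the 9 libraries.

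The cells were 1 mouse acute myeloid leukaemia line, grown from fetal liver cells that had received a pair of retroviral vectors. The MSCV vector makes MLL-AF9, a fusion of a chromatin regulator that drives leukaemia, at all times and in all groups, together with luciferase. The other vector makes FLT3-ITD, a receptor tyrosine kinase with an internal tandem duplication that signals without its ligand, and DsRED from a TRE-tight promoter, which is active only with doxycycline. The ON cells grew in 1 µg/mL doxycycline. The drug was removed by washing 24 h before harvest for OFF24 and 48 h before harvest for OFF48, and each of these 3 groups has 3 libraries. Both comparisons with ON thus set FLT3-ITD withdrawal within cells that keep MLL-AF9, and OFF48 against OFF24 sets a longer withdrawal against a shorter one. No group without the FLT3-ITD vector or with drug alone was analysed here. Loss of FLT3-ITD therefore cannot be told apart from removal of the drug and the wash. Whether replicates were grown as separate cultures is not stated in the labels. The p-values therefore rest on the scatter among these samples alone, and that scatter may be technical.

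Splicing removes introns from a new transcript. A ring of Sm proteins forms on U1 and U2 small nuclear RNA. The U1 particle then pairs with the start of the intron, and the U2 particle, held by SF3A and SF3B, pairs with the branch point. SR proteins bind exons and mostly favour the use of nearby splice sites, while hnRNPs coat the transcript and often compete with them. Many of these factors are abundant in dividing cells, and several, among them SF3B1 and SRSF2, are known as targets of recurrent mutation in myeloid neoplasms.

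Library totals ran from 1329296 to 4038456 counts, and 10215 genes were tested. The tested members had between 37 and 6956 counts in a library. A count of 0 allows up to 3 counts, or 0.737 CPM (counts scaled to library size) where sequencing was deepest and 2.25 CPM where it was shallowest. These floors cover counting error only. Mouse Flt3 had 2 to 10 counts in a library, and 3' end counts of that gene need not read a transcript that ends in vector sequence, so this is no check of the withdrawal. The 12 myeloid markers, all tested, summed to 2970 to 3240 CPM across the ON libraries, to 4770 to 5320 at 24 h and to 5930 to 6720 at 48 h, and their part in the results below was not tested. None of the 8 lymphoid and none of the 7 erythroid markers was tested, and their sums were at most 2.51 and 1.5 CPM in any library. The 8 hepatocyte and stromal markers, 1 of them tested, summed to 26.1 to 35.5 CPM across ON libraries, 41.8 to 58.4 at 24 h and 53.7 to 61.8 at 48 h, and the 7 megakaryocyte, mast cell and basophil markers, 2 of them tested, to 17.2 to 21.1, 27 to 30.1 and 11.2 to 19.5, and their part was likewise not tested. The first of these sums was nearly all Pecam1, a gene of endothelial cells and of many leukocytes, at a mean of 27.7, 46.8 and 54.8 CPM. Hbb-bt, Alas2, Epor, Cpa3, Alb, Ttr and Cdh5 were at 0 in all libraries.

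After FLT3-ITD withdrawal more of these genes fell than rose. The members, and the pathway lists further below, were chosen with earlier results of these data known, so their shares are descriptions. At 24 h 21 of the 50 fell (42%) and 6 rose (12%), where 17.4% of all tested genes fell and 17.8% rose (35.3% in either direction). At 48 h 24 fell (48%) and 5 rose (10%), against 23.9% and 23.4% of all tested genes (47.4% in either direction). The changes were moderate in size. The median log2 fold change of the members was -0.24 at 24 h and -0.25 at 48 h, where that of all tested genes was 0.03 and 0.01. Only Snrpd3 fell at least 2-fold at 24 h, Snrpd3, Hnrnpa1 and Snrpa1 did at 48 h, and no member rose 2-fold.

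A call here means an adjusted p under 0.05 in edgeR's quasi-likelihood test with Benjamini-Hochberg (BH) adjustment over all 10215 genes, and fold changes are on the log2 scale with their standard error (SE). Levels are CPM scaled by TMM, with the SD over n = 3 libraries. The 3 comparisons share libraries, since both times are set against the same ON libraries, so values at the 2 times are given side by side. In bulk RNA fewer cells of a type and less RNA per cell cannot be told apart. Between 24 h and 48 h 5 members fell (10%) and 3 rose (6%), where 11.2% of all tested genes fell and 9.99% rose (21.1% in either direction). The members' shares lay near these. All 3 libraries lay below all 3 of ON for 27 members at 24 h and 30 at 48 h, and above them for 7 and 3. The corresponding shares of all tested genes were 23.8% and 27% below and 25.1% and 25.6% above. Between OFF48 and OFF24, 10 members lay below and 7 above without overlap, against 19.8% and 18.2% of all tested genes.

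**Figure D1:**
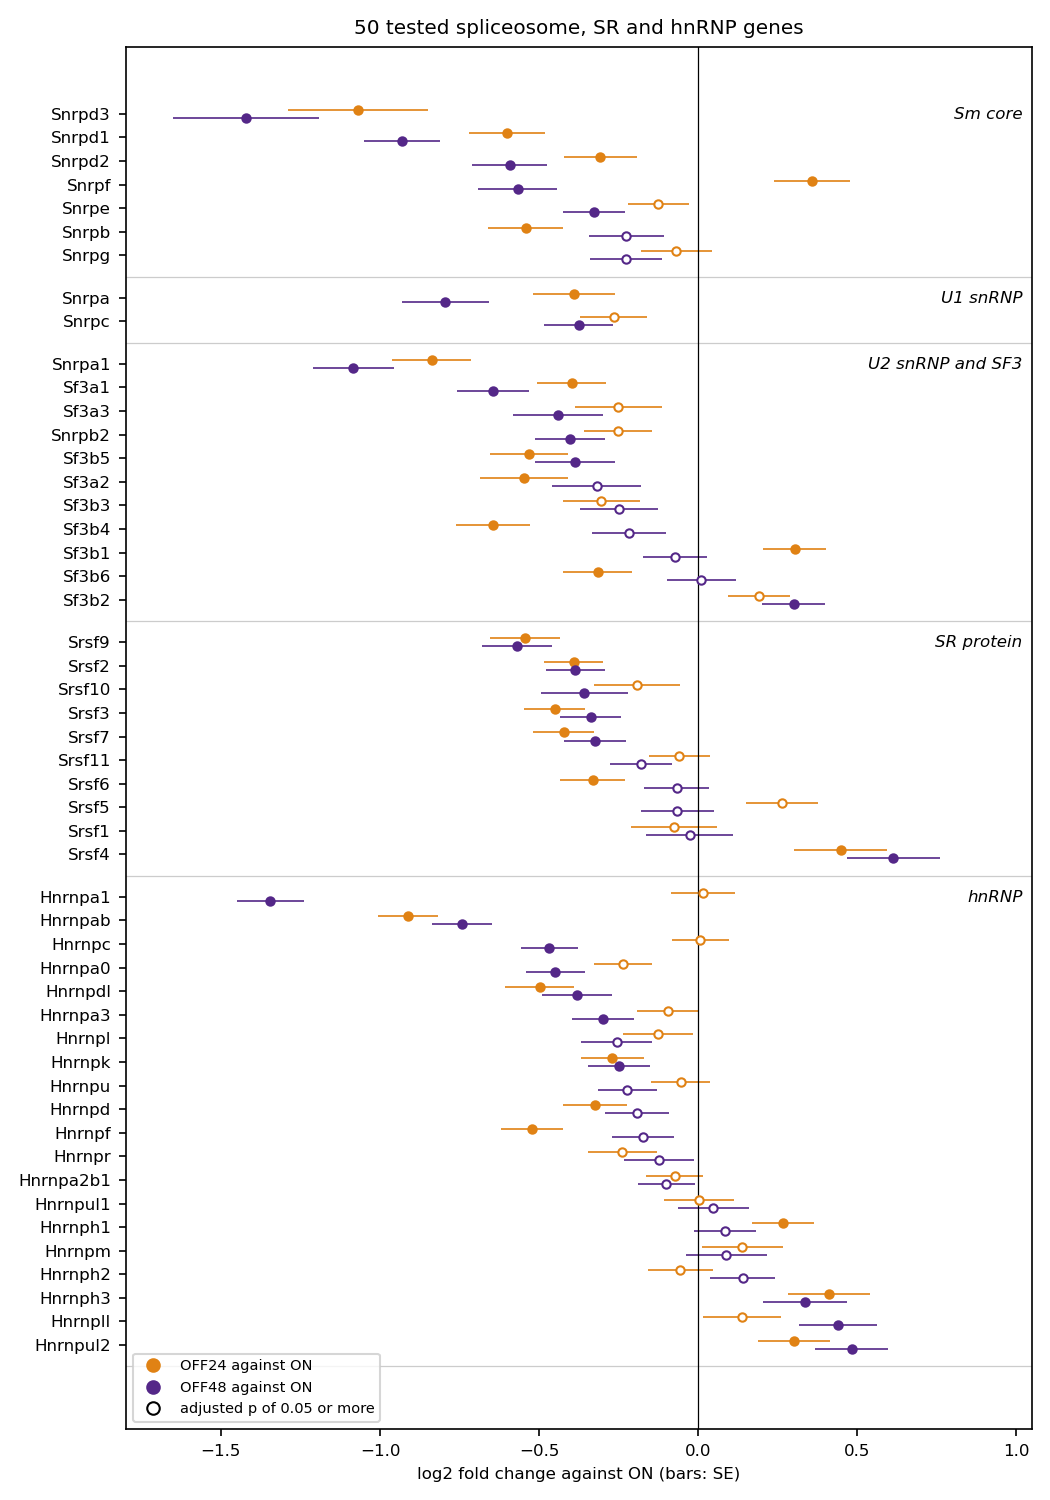
Log2 fold change (x axis, bars are SE) of each of the 50 tested genes (y axis, grouped by class) in OFF24 and OFF48 against ON, with open points where the adjusted p was 0.05 or more. Most points lie left of 0, with 37 of 50 negative at 24 h and 40 of 50 at 48 h, and Snrpd3 and Hnrnpa1 lie farthest left at 48 h.

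The count of rises at 24 h changed most with the libraries used. It went from 6 to 3 with DESeq2 or with no filter on low counts, to 1 without ON replicate 2, to 3 without ON replicate 1 or 3, and to 0 without any single one of the OFF24 replicates. Rises among all tested genes went from 1822 to between 1355 and 1427 in those last 3 fits. The log2 fold changes of the 6 stayed positive in all 18 alternatives, at 0.37 to 0.52 for Srsf4, 0.27 to 0.49 for Snrpf, 0.25 to 0.37 for Sf3b1, 0.28 to 0.48 for Hnrnph3, 0.22 to 0.35 for Hnrnpul2 and 0.20 to 0.33 for Hnrnph1. The cause of the lost calls was not tested. The 21 falls came to between 17 and 25 under all 18 alternatives run, and the 24 falls at 48 h to between 21 and 29. The 5 rises at 48 h came to 3 without OFF48 replicate 1. From 24 h to 48 h the 3 rises came to 1 without OFF24 replicate 1 or OFF48 replicate 1 and to 5 without ON replicate 2, and the 5 falls to 3 without OFF24 replicate 1 or 2.

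The summed level of all members was 17414 ± 289 CPM in the ON group, 15234 ± 81.2 at 24 h and 14503 ± 537 at 48 h (SD, n = 3). The sum of the Sm core genes went from 2332 ± 101 to 1875 ± 10.96 and 1539 ± 111 CPM, that of the U1 genes from 154 ± 8.59 to 125 ± 7.61 and 109 ± 3.88 CPM, and that of the U2 and SF3 genes from 1972 ± 43.3 to 1840.3 ± 16.9 and 1761 ± 113 CPM. The SR genes summed to 2616 ± 52.9, 2279 ± 65.8 and 2234 ± 55.8 CPM, and the hnRNP genes to 10341 ± 208, 9115 ± 20.2 and 8860.2 ± 285 CPM. Each class stood lower at both times than in ON by these means, which are descriptions and were not tested.

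Promoters were read for the members that RefSeq's table holds (GRCm38.p6), 46 of the 52, because many members moved together. Of the windows from 250 bases before to 50 after each start, the E-box CACGTG, the letters bound by MYC and its partners, stood in those of 6 members (13.0%), against 12.4% of the 8018 tested genes that matched and 7.15% of all 32851 windows. The ETS motif CCGGAAG stood in those of 16 members (34.8%), against 23.1% of matched tested genes and 8.86% of all windows. Both strands were searched, CACGTG being the same on both, no match of one motif overlaps a match of the other, and members had 1.37 windows each where tested genes had 1.28. Of the 6 members with the E-box 3 fell at 24 h and 2 at 48 h, and of the 16 with the ETS motif 6 fell at each time, where 42% and 48% of all 50 tested members fell. Those shares include the carriers and also tested members without a window, so the sets differ. Any link between a motif and the course of a gene was not tested. Snrpa is the only member with the E-box, and Sf3a1 and Srsf7 are the only ones with the ETS motif, that fell at both times. Among members with the ETS motif, Srsf4 rose at both times and Sf3b2 rose at 48 h. A match is a description of these letters only. The 250 bases before the start are shown 5′ to 3′ for 4 genes that fell at both times, with motif letters in capitals: Snrpa (chr7:27196272-27196521, minus strand, the upstream one of its 2 starts) for its pair of E-boxes, Sf3a1 (chr11:4160104-4160353, plus strand) and Srsf7 (chr17:80207306-80207555, minus strand) for an ETS motif on the printed strand, and Hnrnpab (chr11:51606882-51607131, minus strand), which has neither.
Snrpa: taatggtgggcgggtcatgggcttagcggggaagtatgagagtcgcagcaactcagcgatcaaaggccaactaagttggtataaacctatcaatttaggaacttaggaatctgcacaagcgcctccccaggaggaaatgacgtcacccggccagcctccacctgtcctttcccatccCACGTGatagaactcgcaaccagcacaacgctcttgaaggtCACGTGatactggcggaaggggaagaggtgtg
Sf3a1: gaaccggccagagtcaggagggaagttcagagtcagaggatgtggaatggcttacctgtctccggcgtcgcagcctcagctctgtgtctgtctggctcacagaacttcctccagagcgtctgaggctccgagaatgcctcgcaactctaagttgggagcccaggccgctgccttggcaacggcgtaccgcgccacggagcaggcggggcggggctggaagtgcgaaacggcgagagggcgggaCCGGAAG
Srsf7: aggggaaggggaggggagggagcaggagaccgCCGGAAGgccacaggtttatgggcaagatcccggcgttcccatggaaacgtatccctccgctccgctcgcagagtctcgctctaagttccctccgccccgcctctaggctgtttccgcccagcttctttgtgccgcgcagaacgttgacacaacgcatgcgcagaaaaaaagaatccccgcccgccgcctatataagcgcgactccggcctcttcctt
Hnrnpab: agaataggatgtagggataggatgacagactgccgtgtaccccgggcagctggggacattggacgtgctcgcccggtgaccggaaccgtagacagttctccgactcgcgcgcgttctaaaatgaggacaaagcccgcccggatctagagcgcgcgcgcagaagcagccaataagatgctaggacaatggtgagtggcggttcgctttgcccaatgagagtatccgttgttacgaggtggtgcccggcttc

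Of the 7 tested Sm core genes 4 fell and 1 rose at 24 h, and 5 fell and none rose at 48 h, with median log2 fold changes of -0.31 and -0.57. These are 57.1% and 14.3% at 24 h, where 17.4% and 17.8% of all tested genes fell and rose. At 48 h 71.4% fell, where 23.9% of all tested genes fell and 23.4% rose. Snrpd3, which encodes the Sm ring protein SmD3 (chr10:75517551-75537381, plus strand, GRCm38 with GENCODE M21, as for all positions of genes below), stood at 266, 387 and 271 CPM in ON (mean 308 ± 68.5), 121, 158 and 161 CPM in OFF24 (mean 146 ± 21.9) and 123, 153 and 77.8 CPM in OFF48 (mean 118 ± 37.9). All OFF libraries lay below all ON libraries, ON replicate 2 was the highest and OFF48 replicate 3 the lowest. It fell by 1.07 ± 0.22 (adjusted p = 0.00333) on the log2 scale at 24 h and by 1.42 ± 0.23 (adjusted p = 0.000372) at 48 h, the widest SEs among the members. Both calls held in all 18 alternatives. The further step from 24 h to 48 h was -0.35 ± 0.23 (adjusted p = 0.324) and was not called.

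Snrpd1 encodes SmD1, the ring partner of SmD2 (chr18:10617775-10642079, plus strand). It stood at 714, 595 and 729 CPM in ON (mean 679 ± 73.1), 490.0, 412 and 443 CPM in OFF24 (mean 448 ± 39.1) and 423, 326 and 317 CPM in OFF48 (mean 356 ± 59.0), without overlap between ON and either time. It fell by 0.60 ± 0.12 (adjusted p = 0.00069) at 24 h and by 0.93 ± 0.12 (adjusted p = 3.71e-06) at 48 h on the log2 scale. Snrpd2, the gene of that partner, fell by 0.31 ± 0.11 (adjusted p = 0.0433) and 0.59 ± 0.12 (adjusted p = 0.000406), and its call at 24 h was lost in 8 of the 18 alternatives, among them without OFF24 replicate 1 (adjusted p = 0.157), OFF24 replicate 3 (adjusted p = 0.103) and each ON replicate (adjusted p = 0.0549 to 0.0834). Snrpb, which encodes SmB, fell by 0.54 ± 0.12 (adjusted p = 0.00148) at 24 h and was not called at 48 h, with -0.23 ± 0.12 (adjusted p = 0.123). Snrpe, the gene of SmE, fell at 48 h by 0.33 ± 0.10 (adjusted p = 0.00907), with -0.12 ± 0.10 (adjusted p = 0.334) at 24 h. Snrpg, the gene of SmG, was called at neither time, with -0.07 ± 0.11 (adjusted p = 0.668) and -0.23 ± 0.11 (adjusted p = 0.109). At 48 h it passed as a fall in 3 of the 18 alternatives, among them the replicate block (adjusted p = 0.0357).

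Snrpf, the gene of SmF (chr10:93583029-93589706, minus strand), moved in opposite directions at the 2 times. It stood at 185, 185 and 242 CPM in ON (mean 204 ± 32.6), 279.7, 249 and 255 CPM in OFF24 (mean 261 ± 16.2) and 135, 118 and 155 CPM in OFF48 (mean 136 ± 18.5). The OFF24 libraries lay above all the others, and the OFF48 libraries lay below all ON libraries. It rose by 0.36 ± 0.12 (adjusted p = 0.0259) at 24 h and fell by 0.57 ± 0.12 (adjusted p = 0.000907) at 48 h, on the log2 scale against ON. From 24 h to 48 h it fell by 0.92 ± 0.12 (adjusted p = 2.37e-05). That fall held in all 18 alternatives, while the rise at 24 h was lost without ON replicate 1 (adjusted p = 0.146), ON replicate 2 (adjusted p = 0.109) and OFF24 replicates 1, 2 and 3 (adjusted p = 0.125, 0.0562 and 0.0722). Its last bases overlap an exon of Ccdc38 on the opposite strand, a row with 2 counts in all libraries together, and the strand setting of the authors' counting is not given in the sources used here.

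Snrpn, the gene of SmN, a form of SmB best known from brain (chr7:59982495-60140219, minus strand), was at 0 in all libraries, as was Snurf, which lies within its span on the same strand. Exons of Gm38393 overlap those of Snrpn too. How the authors counted reads that fall in more than 1 gene is not given in the sources used here, so the 0 need not mean that no Snrpn read was sequenced.

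**Figure D2:**
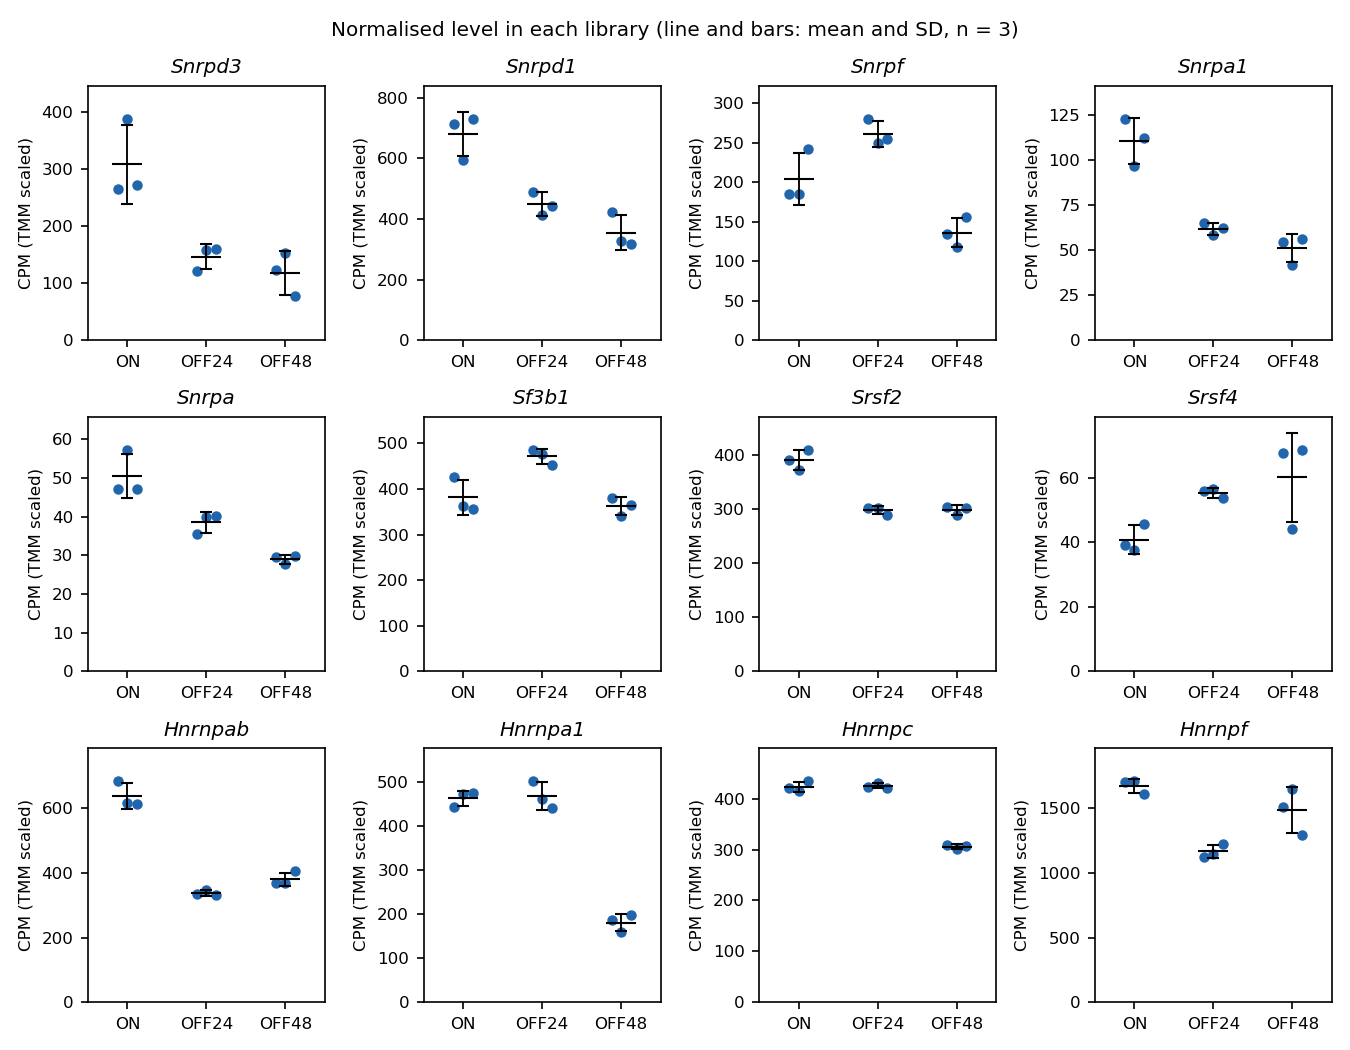
CPM (y axis, from 0, a separate scale for each gene) in each library of ON, OFF24 and OFF48 (x axis) for 12 genes, with points for libraries and a line with bars for mean and SD (n = 3). Snrpd3, Snrpd1, Snrpa1, Snrpa and Hnrnpab lie lower at both times, Hnrnpa1 and Hnrnpc only at 48 h, and Snrpf is highest at 24 h and lowest at 48 h.

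Both U1 genes fell at 48 h and 1 of the 2 at 24 h. Of all tested genes 23.9% fell at 48 h and 17.4% at 24 h. Snrpa encodes the A protein of U1, which binds a stem loop of the U1 RNA (chr7:27187005-27196271, minus strand), and its promoter is the one with a pair of E-boxes printed above. It stood at 47.2, 57.2 and 47.2 CPM in ON (mean 50.6 ± 5.79), 35.5, 39.9 and 40.2 CPM in OFF24 (mean 38.5 ± 2.61) and 29.5, 27.7 and 29.7 CPM in OFF48 (mean 29.0 ± 1.09). All OFF48 libraries lay below all OFF24 libraries, and these below all ON libraries. It fell by 0.39 ± 0.13 (adjusted p = 0.0234) at 24 h and by 0.80 ± 0.14 (adjusted p = 9.09e-05) at 48 h on the log2 scale, and the step between was -0.40 ± 0.14 (adjusted p = 0.0508). The call at 24 h was lost with DESeq2 (adjusted p = 0.07), without ON replicate 2 (adjusted p = 0.0956) and without OFF24 replicate 1 (adjusted p = 0.0745). Snrpc, the gene of the C protein of U1, which steadies the pairing with the splice site, fell at 48 h by 0.38 ± 0.11 (adjusted p = 0.00732), and had -0.27 ± 0.10 (adjusted p = 0.0557) at 24 h. At 24 h it passed as a fall in 6 of the 18 alternatives. Snrpa and Snrpc share 3' end sequence with 5 and 3 other annotated genes, none of which has a counted row.

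Of the 11 U2 and SF3 genes 6 fell and 1 rose at 24 h, and 5 fell and 1 rose at 48 h, with a median log2 fold change of -0.32 at each time. These are 54.5% and 9.09% at 24 h, where 17.4% and 17.8% of all tested genes fell and rose. At 48 h they are 45.5% and 9.09%, where 23.9% and 23.4% did. The 5 falls at 48 h came to 3 without OFF48 replicate 3. Snrpa1, the gene of the A′ protein of the U2 particle (chr7:66059003-66074587, plus strand), stood at 122, 96.8 and 112 CPM in ON (mean 110.4 ± 12.9), 64.8, 58.4 and 62.3 CPM in OFF24 (mean 61.8 ± 3.23) and 54.3, 42.0 and 56.3 CPM in OFF48 (mean 50.9 ± 7.75). The groups did not overlap in either comparison with ON. It fell by 0.84 ± 0.12 (adjusted p = 3.7e-05) at 24 h and by 1.08 ± 0.13 (adjusted p = 1.23e-06) at 48 h on the log2 scale, and both calls held in all 18 alternatives. Snrpb2, which encodes the B″ partner of that protein, fell by 0.40 ± 0.11 (adjusted p = 0.00497) at 48 h and had -0.25 ± 0.11 (adjusted p = 0.0778) at 24 h. At 24 h it passed as a fall in 5 of the 18 alternatives.

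The SF3A complex joins the U2 particle to SF3B. Its largest subunit gene, Sf3a1, fell by 0.40 ± 0.11 (adjusted p = 0.00805) at 24 h and by 0.64 ± 0.11 (adjusted p = 0.000107) at 48 h on the log2 scale. Sf3a2 (chr10:80798198-80804924, plus strand) stood at 68.4, 99.5 and 88.4 CPM in ON (mean 85.4 ± 15.8), 54.3, 56.5 and 63.7 CPM in OFF24 (mean 58.2 ± 4.92) and 68.8, 77.2 and 62.1 CPM in OFF48 (mean 69.4 ± 7.58). Its OFF24 libraries lay below all ON libraries, while those of OFF48 overlapped with ON. It fell by 0.55 ± 0.14 (adjusted p = 0.00449) at 24 h and had -0.32 ± 0.14 (adjusted p = 0.0669) at 48 h. At 48 h it passed as a fall in 4 of the 18 alternatives, among them the replicate block (adjusted p = 0.0428). The third subunit gene, Sf3a3, fell by 0.44 ± 0.14 (adjusted p = 0.0147) at 48 h, a call lost without OFF48 replicate 3 (adjusted p = 0.0795), and had -0.25 ± 0.14 (adjusted p = 0.16) at 24 h.

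The SF3B genes did not move together. Sf3b1, whose product is the scaffold that holds the branch point (chr1:54985169-55027481, minus strand), stood at 426, 363 and 357 CPM in ON (mean 382 ± 38.7), 485, 477 and 453 CPM in OFF24 (mean 472 ± 16.7) and 381, 341 and 366 CPM in OFF48 (mean 363 ± 20.1). OFF24 lay above the other groups, and ON and OFF48 overlapped. It rose by 0.30 ± 0.10 (adjusted p = 0.0223) at 24 h, had -0.07 ± 0.10 (adjusted p = 0.579) at 48 h, and fell by 0.38 ± 0.10 (adjusted p = 0.0105) between the 2 times. The rise was lost without ON replicate 2 or 3 (adjusted p = 0.0892 and 0.104), without OFF24 replicate 1, 2 or 3 (adjusted p = 0.0907, 0.0858 and 0.0566) and with no filter on low counts (adjusted p = 0.0582). The fall between the times was lost without OFF24 replicate 1 or 2 (adjusted p = 0.0534 and 0.0526).

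Sf3b2, the gene of the SF3B subunit that binds near the branch point (chr19:5273932-5295455, minus strand), stood at 426, 415 and 416 CPM in ON (mean 419 ± 6.19), 466, 496 and 475 CPM in OFF24 (mean 479 ± 15.5) and 557, 539.9 and 454 CPM in OFF48 (mean 517 ± 54.9). All OFF48 libraries lay above ON, replicate 3 by least. It rose by 0.30 ± 0.10 (adjusted p = 0.0166) at 48 h, with 0.19 ± 0.10 (adjusted p = 0.136) at 24 h, and the call was lost without ON replicate 3 (adjusted p = 0.0515) or OFF48 replicate 1 (adjusted p = 0.0802). Sf3b3, a large subunit with a propeller fold, was called in no comparison, with -0.30 ± 0.12 (adjusted p = 0.0588) and -0.25 ± 0.12 (adjusted p = 0.106), but passed at 48 h with the replicate block (adjusted p = 0.0362). At 24 h it passed as a fall in 9 of the 18 alternatives, with adjusted p of 0.0178 to 0.0486.

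A pair of genes for small SF3B subunits that bind RNA fell at 24 h and were not called against ON at 48 h. Sf3b4 (chr3:96172332-96177564, plus strand) stood at 65.3, 70.3 and 69.1 CPM in ON (mean 68.2 ± 2.59), 40.1, 46.5 and 43.8 CPM in OFF24 (mean 43.5 ± 3.17) and 60.7, 62.2 and 54.2 CPM in OFF48 (mean 59.1 ± 4.25). The OFF24 libraries lay below all others. It fell by 0.64 ± 0.12 (adjusted p = 0.000314) at 24 h, had -0.22 ± 0.12 (adjusted p = 0.133) at 48 h and rose by 0.43 ± 0.12 (adjusted p = 0.0177) in between, a rise lost without OFF24 replicate 1 (adjusted p = 0.0597) or OFF48 replicate 1 (adjusted p = 0.055). Sf3b6, whose product touches the branch point adenosine (chr12:4817544-4827659, plus strand), stood at 89.5, 85.0 and 84.5 CPM in ON (mean 86.3 ± 2.79), 69.8, 66.2 and 72.1 CPM in OFF24 (mean 69.4 ± 2.95) and 91.9, 78.0 and 88.6 CPM in OFF48 (mean 86.2 ± 7.28). Its OFF24 libraries lay below all others too. It fell by 0.32 ± 0.11 (adjusted p = 0.0291) at 24 h, had 0.01 ± 0.11 (adjusted p = 0.951) at 48 h and rose by 0.33 ± 0.11 (adjusted p = 0.0431) between the times, but the fall was lost in 6 and the rise in 11 of the 18 alternatives. The fall was lost without ON replicate 1 (adjusted p = 0.0798) and OFF24 replicates 1 and 2 (adjusted p = 0.0558 and 0.0911), and the rise without each of the OFF24 replicates, ON replicate 3 and OFF48 replicates 1 and 3 (adjusted p = 0.0554 to 0.122). Sf3b5, a small subunit gene, fell by 0.53 ± 0.12 (adjusted p = 0.00255) and 0.39 ± 0.13 (adjusted p = 0.016) at the 2 times, the second lost without ON replicate 2 (adjusted p = 0.0708), OFF48 replicate 1 (adjusted p = 0.0579) or OFF48 replicate 3 (adjusted p = 0.0995).

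**Figure D3:**
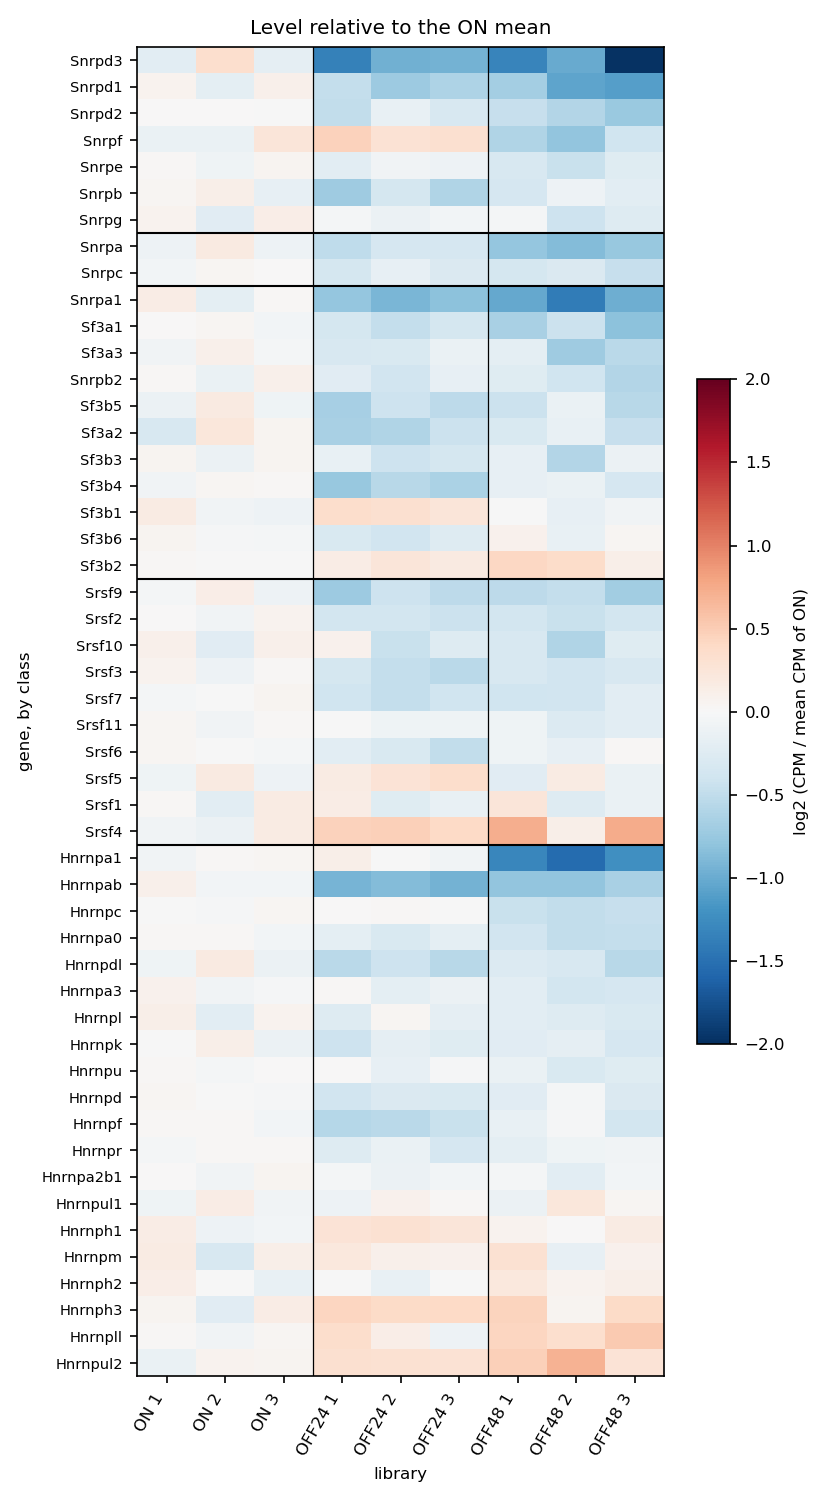
Log2 of the CPM in each library (x axis) over the mean CPM of ON for the 50 tested genes (y axis, by class, ordered by the change at 48 h), red above and blue below that mean. Columns of the same group look alike for most genes, and Sf3b4, Sf3b6 and Hnrnpf are bluer in the OFF24 columns than in those of OFF48.

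Of the 10 tested SR genes 5 fell and 1 rose at each time, with median log2 fold changes of -0.26 and -0.25. These are 50% and 10%. Of all tested genes 17.4% fell and 17.8% rose at 24 h, and 23.9% fell and 23.4% rose at 48 h. The 5 at 24 h were Srsf2, Srsf3, Srsf6, Srsf7 and Srsf9, and at 48 h Srsf10 stood in place of Srsf6. Srsf2, the gene of SC35, which binds exonic enhancers (chr11:116849901-116853094, minus strand), stood at 391, 371 and 408 CPM in ON (mean 390.1 ± 18.5), 301, 302 and 289 CPM in OFF24 (mean 298 ± 7.19) and 304, 288 and 302 CPM in OFF48 (mean 298 ± 8.74). All OFF libraries lay below all ON libraries, and the 2 OFF groups overlapped. It fell by 0.39 ± 0.09 (adjusted p = 0.00282) at 24 h and by 0.39 ± 0.09 (adjusted p = 0.00199) at 48 h on the log2 scale. Mettl23, on the opposite strand, overlaps it and has 648 counts over all libraries where Srsf2 has 9165.

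Srsf3, the gene of the smallest SR protein, which also takes part in export and 3' end choice (chr17:29032628-29043373, plus strand), stood at 477, 426 and 466 CPM in ON (mean 456 ± 27.2), 358, 329.6 and 315 CPM in OFF24 (mean 334 ± 22.0) and 364, 352 and 367 CPM in OFF48 (mean 361 ± 7.996). Again ON lay above all OFF libraries. It fell by 0.45 ± 0.10 (adjusted p = 0.00117) and 0.34 ± 0.10 (adjusted p = 0.00681). Srsf7, whose product is close to SRSF3 and carries a zinc knuckle (chr17:80200080-80207307, minus strand, promoter printed above), stood at 209.7, 214 and 223 CPM in ON (mean 216 ± 6.78), 164, 156 and 163 CPM in OFF24 (mean 161 ± 4.41) and 163, 166 and 186 CPM in OFF48 (mean 172 ± 12.8). Its OFF libraries also lay below ON without overlap, and it fell by 0.42 ± 0.10 (adjusted p = 0.00227) and 0.32 ± 0.10 (adjusted p = 0.0101). Srsf9, which encodes a short relative of SRSF1, fell by 0.54 ± 0.11 (adjusted p = 0.000747) and 0.57 ± 0.11 (adjusted p = 0.000309). The 8 calls of Srsf2, Srsf3, Srsf7 and Srsf9 at the 2 times held in all 18 alternatives.

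Srsf1, the gene of the SR protein also called ASF/SF2 (chr11:88047373-88053755, plus strand), stood at 339, 288 and 374 CPM in ON (mean 334 ± 43.3), 369, 282 and 300.3 CPM in OFF24 (mean 317 ± 45.7) and 394, 279 and 305 CPM in OFF48 (mean 326 ± 60.1). All 3 groups overlapped, and replicate 2 was the lowest in each. It was not called, with -0.07 ± 0.14 (adjusted p = 0.702) at 24 h and -0.03 ± 0.14 (adjusted p = 0.889) at 48 h. Srsf6 fell at 24 h by 0.33 ± 0.10 (adjusted p = 0.0166), a call lost without OFF24 replicate 3 (adjusted p = 0.0952), and had -0.07 ± 0.10 (adjusted p = 0.622) at 48 h. Srsf10, whose product represses splicing when dephosphorylated, fell at 48 h by 0.36 ± 0.14 (adjusted p = 0.0385), a call lost in 7 alternatives, among them without ON replicates 1 and 3 (adjusted p = 0.136 and 0.111), OFF24 replicate 3 (adjusted p = 0.0523) and OFF48 replicates 1 and 2 (adjusted p = 0.0686 and 0.114). Srsf11 was not called, with -0.06 ± 0.10 (adjusted p = 0.664) and -0.18 ± 0.10 (adjusted p = 0.135).

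Srsf4, the gene of SRp75, a long SR protein (chr4:131873617-131901706, plus strand), was the SR gene that rose. It stood at 39.0, 37.6 and 45.8 CPM in ON (mean 40.8 ± 4.39), 56.0, 56.5 and 53.6 CPM in OFF24 (mean 55.4 ± 1.55) and 67.8, 44.2 and 68.5 CPM in OFF48 (mean 60.2 ± 13.8). OFF24 lay above ON, while OFF48 replicate 2 lay within the range of ON. It rose by 0.45 ± 0.15 (adjusted p = 0.0217) at 24 h and by 0.61 ± 0.15 (adjusted p = 0.00185) at 48 h. The call at 48 h held in all 18 alternatives. That at 24 h was lost with DESeq2 (adjusted p = 0.0516), without ON replicate 1 or 2 (adjusted p = 0.0846 and 0.0798) and without OFF24 replicate 1, 2 or 3 (adjusted p = 0.0659, 0.0774 and 0.0569). Gm12992, which overlaps its 3' end on the opposite strand, has 13 counts in all libraries together. Srsf5, the gene of SRp40, had 0.26 ± 0.11 (adjusted p = 0.0792) at 24 h and -0.07 ± 0.12 (adjusted p = 0.673) at 48 h. Neither was called, but the first passed as a rise in 4 of the 18 alternatives. Between the times Srsf5 fell by 0.33 ± 0.12 (adjusted p = 0.0481) with overlapping groups. That fall was lost in 11 of the 18 alternatives, with adjusted p of 0.0577 to 0.226 when ON replicate 1 or 3, any OFF24 replicate, or OFF48 replicate 1 or 3 was left out. Srsf12 (chr4:33208991-33233340, plus strand) was at 0 in all libraries.

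Of the 20 hnRNP genes 5 fell and 3 rose at 24 h, and 7 fell and 3 rose at 48 h, with median log2 fold changes of -0.06 and -0.18. These are 25% and 15% at 24 h, where 17.4% and 17.8% of all tested genes fell and rose, and 35% and 15% at 48 h, where 23.9% and 23.4% did. The 3 rises at 24 h came to 0 without ON replicate 2 or any one OFF24 replicate and to 1 without ON replicate 3 or OFF48 replicate 1, and the 5 falls to 3 without OFF24 replicate 1. In the A/B and D families 3 of 7 fell at 24 h and 5 of 7 at 48 h and none rose, and of the other 13 hnRNP genes 2 fell and 3 rose at each time, a difference that was not tested. Hnrnpab, which encodes a protein that binds AU-rich RNA (chr11:51600100-51606847, minus strand, promoter printed above), stood at 682, 614 and 612 CPM in ON (mean 636 ± 40.0), 335, 347 and 331 CPM in OFF24 (mean 338 ± 8.58) and 368, 368 and 404 CPM in OFF48 (mean 379.9 ± 20.7). All OFF24 libraries lay below all OFF48 libraries, and these below all ON libraries. It fell by 0.91 ± 0.09 (adjusted p = 6.28e-07) at 24 h and by 0.74 ± 0.09 (adjusted p = 2.98e-06) at 48 h on the log2 scale, and both calls held in all 18 alternatives. Its row has 12876 counts, and Phykpl, which shares 3' end sequence with it, has 505.

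Hnrnpa1, the gene of an abundant repressor of exon use (chr15:103240432-103246692, plus strand), was not called at 24 h and fell by 48 h. It stood at 442, 471 and 473 CPM in ON (mean 462 ± 17.3), 501, 459.9 and 441 CPM in OFF24 (mean 467 ± 30.8) and 186, 159 and 197 CPM in OFF48 (mean 181 ± 19.5). All OFF48 libraries lay under all the others, while ON and OFF24 overlapped. It had 0.01 ± 0.10 (adjusted p = 0.924) at 24 h, fell by 1.34 ± 0.10 (adjusted p = 4.74e-09) at 48 h and fell by 1.36 ± 0.10 (adjusted p = 1.55e-08) between the times, and both falls held in all 18 alternatives. The row named Hnrnpa1l2-ps2, left out by its pseudogene symbol, has the same count in each of the 9 libraries, so which locus the reads came from, and the level of either, is uncertain.

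Hnrnpa2b1, which encodes the RNA transport and splicing factor A2/B1 (chr6:51460932-51469894, minus strand), stood at 1302, 1241 and 1347 CPM in ON (mean 1297 ± 53.1), 1255, 1199 and 1244 CPM in OFF24 (mean 1233 ± 30.0) and 1259, 1123 and 1244 CPM in OFF48 (mean 1209 ± 74.9). All groups overlapped and it was not called, with -0.07 ± 0.09 (adjusted p = 0.559) and -0.10 ± 0.09 (adjusted p = 0.376). Hnrnpa0, the gene of a related protein, fell by 0.45 ± 0.09 (adjusted p = 0.00051) at 48 h and had -0.24 ± 0.09 (adjusted p = 0.0506) at 24 h, and passed at 24 h in 10 of the alternatives. Hnrnpa3 fell by 0.30 ± 0.10 (adjusted p = 0.016) at 48 h, a call lost without ON replicate 1 (adjusted p = 0.0851), and it shares 3' end sequence with 29 annotated genes, of which 2 (Gm6793 and Taok3) have rows with 16082 counts together where Hnrnpa3 has 16366.

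Hnrnpd encodes AUF1, which speeds the decay of AU-rich messages. It fell by 0.32 ± 0.10 (adjusted p = 0.016) at 24 h, lost without OFF24 replicate 1 (adjusted p = 0.0546), and had -0.19 ± 0.10 (adjusted p = 0.125) at 48 h. Hnrnpdl, the gene of its close relative, fell by 0.50 ± 0.11 (adjusted p = 0.00157) and 0.38 ± 0.11 (adjusted p = 0.00759).

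Hnrnpc, whose product binds runs of U and packs new transcripts (chr14:52073377-52104028, minus strand), followed the course of Hnrnpa1 at a smaller size. It stood at 421, 414 and 434 CPM in ON (mean 423 ± 9.98), 423, 431 and 421 CPM in OFF24 (mean 425 ± 5.18) and 309.7, 301 and 306 CPM in OFF48 (mean 306 ± 4.13). ON and OFF24 overlapped and all OFF48 libraries lay below them. It had 0.01 ± 0.09 (adjusted p = 0.957) at 24 h, fell by 0.47 ± 0.09 (adjusted p = 0.000287) at 48 h and fell by 0.48 ± 0.09 (adjusted p = 0.000843) between the times, in all 18 alternatives.

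Hnrnpk, the gene of a poly(C)-binding protein (chr13:58391142-58403343, minus strand), stood at 1406, 1547 and 1305 CPM in ON (mean 1419 ± 122), 1070.2, 1259 and 1203 CPM in OFF24 (mean 1177 ± 97.1) and 1214, 1249 and 1125 CPM in OFF48 (mean 1196 ± 63.5). All OFF libraries lay below all ON libraries, by a small margin. It fell by 0.27 ± 0.10 (adjusted p = 0.0386) at 24 h and by 0.25 ± 0.10 (adjusted p = 0.0441) at 48 h. The second call was lost in 8 alternatives, with adjusted p of 0.057 to 0.157 without ON replicate 1 or 2, OFF24 replicate 2 or 3, or OFF48 replicate 1 or 3, and in the authors' log2 table its change was -0.11 (adjusted p = 0.391). The call at 24 h was lost without ON replicate 1 or 2 (adjusted p = 0.0691 and 0.109), without OFF24 replicate 1 or 3 (adjusted p = 0.145 and 0.0722) and with upper quartile scaling (adjusted p = 0.076).

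Hnrnpu, the gene of SAF-A, which binds the nuclear scaffold (chr1:178321108-178337797, minus strand), stood at 722, 686 and 715 CPM in ON (mean 708 ± 19.0), 711, 635 and 698 CPM in OFF24 (mean 681 ± 40.9) and 647, 574 and 597 CPM in OFF48 (mean 606 ± 37.5). OFF48 lay below ON, and OFF24 overlapped with ON. It was not called, with -0.05 ± 0.09 (adjusted p = 0.679) and -0.22 ± 0.09 (adjusted p = 0.0574). At 48 h it passed as a fall in 3 of the 18 alternatives, among them the replicate block (adjusted p = 0.0241). Hnrnpul2, the gene of a relative (chr19:8820010-8834143, plus strand), stood at 123, 143 and 141 CPM in ON (mean 136 ± 10.95), 169.7, 167 and 165 CPM in OFF24 (mean 167 ± 2.53) and 189, 220.5 and 163 CPM in OFF48 (mean 191 ± 28.6). All OFF libraries lay above all ON libraries. It rose by 0.30 ± 0.11 (adjusted p = 0.0438) at 24 h and by 0.48 ± 0.11 (adjusted p = 0.0017) at 48 h, where the call at 48 h held in all 18 alternatives. The call at 24 h was lost in 11 of the 18, among them without each ON replicate (adjusted p = 0.051 to 0.218), each OFF24 replicate (adjusted p = 0.114 to 0.127) and OFF48 replicate 1 (adjusted p = 0.0648). Hnrnpul1 was not called, with 0.00 ± 0.11 (adjusted p = 0.987) and 0.05 ± 0.11 (adjusted p = 0.748).

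In the F and H family, whose proteins bind runs of G, the members differed. Hnrnpf (chr6:117900324-117925622, plus strand) stood at 1703, 1709 and 1610.3 CPM in ON (mean 1674 ± 55.2), 1122, 1149 and 1225 CPM in OFF24 (mean 1166 ± 53.0) and 1512, 1652 and 1295 CPM in OFF48 (mean 1486 ± 180.1). OFF24 lay below all the others, and OFF48 overlapped with ON. It fell by 0.52 ± 0.10 (adjusted p = 0.000435) at 24 h, had -0.17 ± 0.10 (adjusted p = 0.158) at 48 h and rose by 0.35 ± 0.10 (adjusted p = 0.0155) between the times, a rise lost without OFF24 replicate 1 (adjusted p = 0.0547) or OFF48 replicate 2 (adjusted p = 0.0522).

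Hnrnph1 (chr11:50376990-50386528, plus strand) stood at 420.1, 356 and 364 CPM in ON (mean 380.0 ± 35.0), 457, 468 and 447 CPM in OFF24 (mean 457 ± 10.5) and 400.2, 380.2 and 426 CPM in OFF48 (mean 402 ± 23.1), with OFF24 above ON and OFF48 overlapping ON. It rose by 0.27 ± 0.10 (adjusted p = 0.0397) at 24 h and had 0.08 ± 0.10 (adjusted p = 0.508) at 48 h. The rise was lost in 9 alternatives, with adjusted p of 0.0595 to 0.159 without ON replicate 2 or 3, any OFF24 replicate, or OFF48 replicate 1. Hnrnph3 (chr10:63014664-63024217, minus strand) stood at 53.1, 43.5 and 56.5 CPM in ON (mean 51.0 ± 6.76), 68.6, 66.9 and 67.3 CPM in OFF24 (mean 67.6 ± 0.881) and 69.1, 53.2 and 66.5 CPM in OFF48 (mean 62.9 ± 8.50). OFF24 lay above ON, and OFF48 overlapped with it. It rose by 0.41 ± 0.13 (adjusted p = 0.0171) and 0.34 ± 0.13 (adjusted p = 0.0414), and the calls were lost in 4 and 11 alternatives. The first was lost without ON replicate 2 (adjusted p = 0.108) or OFF24 replicate 1, 2 or 3 (adjusted p = 0.0585, 0.0538 and 0.0615), and the second without ON replicate 1 or 2, any OFF24 replicate, or OFF48 replicate 1 or 3 (adjusted p = 0.0532 to 0.176). Hnrnph2 was not called, with -0.06 ± 0.10 (adjusted p = 0.705) and 0.14 ± 0.10 (adjusted p = 0.276). Hnrnph1 shares 3' end sequence with Setd1b, which has 4998 counts where Hnrnph1 has 11360.

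Hnrnpll, whose product drives exon skipping in lymphocyte activation (chr17:80029487-80062334, minus strand), stood at 62.7, 59.0 and 63.3 CPM in ON (mean 61.7 ± 2.38), 79.0, 67.8 and 57.8 CPM in OFF24 (mean 68.2 ± 10.6) and 82.9, 78.0 and 88.3 CPM in OFF48 (mean 83.1 ± 5.18). OFF48 lay above ON without overlap, and the OFF24 libraries spread over both. It had 0.14 ± 0.12 (adjusted p = 0.408) at 24 h and rose by 0.44 ± 0.12 (adjusted p = 0.00634) at 48 h, a call that held in all 18 alternatives. Its relative Hnrnpl was not called, with -0.12 ± 0.11 (adjusted p = 0.401) and -0.26 ± 0.11 (adjusted p = 0.0667). At 48 h Hnrnpl passed as a fall in 3 of the 18 alternatives, among them the replicate block (adjusted p = 0.0399). Hnrnpm and Hnrnpr were not called either, with 0.14 ± 0.13 (adjusted p = 0.417) and -0.24 ± 0.11 (adjusted p = 0.0953) at 24 h.

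Ordered by course, 14 members fell at both times, 7 fell at 24 h and were not called at 48 h, 10 fell at 48 h without a fall at 24 h, and 3 (Srsf4, Hnrnph3 and Hnrnpul2) rose at both. Against ON 12 members were called at neither time, and 11 of these were called in no comparison. The share of all tested genes with each of these courses was not computed, so the counts are not read as a trait of the members. With the replicate block Hnrnpl, Hnrnpu, Sf3a2, Sf3b3 and Snrpg fell at 48 h as well, which makes 29 falls. The 14 include genes of every class, with Snrpd1, Snrpd2 and Snrpd3 of the Sm core, Snrpa of U1, Snrpa1, Sf3a1 and Sf3b5 of U2 and SF3, Srsf2, Srsf3, Srsf7 and Srsf9 among SR genes, and Hnrnpab, Hnrnpdl and Hnrnpk among hnRNPs. Sf3b4, Sf3b6 and Hnrnpf, of the 7 that fell at 24 h alone, rose from 24 h to 48 h. Of the 10 that fell at 48 h alone, only Hnrnpa1, Hnrnpc and Snrpf were called between the times. For the rest of the 7 and of the 10 no change between the times was called, so a call at 1 time alone does not show a different course.

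Other genes of the splicing pathway were read from 8 lists with 180 symbols outside the rule. The symbol Nhp2l1 had no row, and the other 179 were tested. Of these 53 fell and 18 rose at 24 h, and 57 fell and 22 rose at 48 h, with median log2 fold changes of -0.12 and -0.18. These are 29.6% and 10.1% at 24 h, where 17.4% and 17.8% of all tested genes fell and rose. At 48 h they are 31.8% and 12.3%, where 23.9% and 23.4% did. The counts of each list below can be read against the same shares of all tested genes. In the list for assembly, methylation and import of the particles, 8 of 17 fell at 24 h and 10 at 48 h and none rose, with medians of -0.56 and -0.51. Prmt5, which methylates Sm proteins before assembly, went from 84.2 ± 5.30 in ON to 46.6 ± 4.61 in OFF24 and 37.5 ± 3.54 in OFF48 CPM (SD, n = 3), and fell by 0.86 ± 0.12 (adjusted p = 1.92e-05) and 1.19 ± 0.13 (adjusted p = 3.04e-07) on the log2 scale. Strap, a protein of the SMN complex, fell by 0.94 ± 0.11 (adjusted p = 4.32e-06) and 0.94 ± 0.12 (adjusted p = 2.36e-06).

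Of the 28 other particle proteins 10 fell and none rose at 24 h, and 9 fell and 2 rose at 48 h. Prpf31, a protein that joins the U4/U6 and U5 particles, went from 34.8 ± 2.66 in ON to 13.0 ± 1.66 in OFF24 and 14.2 ± 1.90 in OFF48 CPM, and fell by 1.41 ± 0.16 (adjusted p = 2.59e-06) and 1.26 ± 0.17 (adjusted p = 5.19e-06). Of the 9 genes of the LSm list, several of whose products form the ring that binds U6 RNA, 5 fell at 24 h and 3 at 48 h and none rose. Lsm7 went from 186 ± 5.87 in ON to 96.0 ± 8.43 in OFF24 and 79.7 ± 10.6 in OFF48 CPM, and fell by 0.95 ± 0.11 (adjusted p = 2.94e-06) and 1.23 ± 0.12 (adjusted p = 6.56e-08). Of the 19 genes of the exon junction complex and the TREX export complex, 10 fell at 24 h and 9 at 48 h and none rose. In that list Alyref, an export adaptor, fell by 0.70 ± 0.09 (adjusted p = 1.12e-05) at 24 h, and Ddx39, an RNA helicase, fell by 0.89 ± 0.13 (adjusted p = 3.44e-05).

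Of the 16 genes for branch point and 3' splice site recognition 5 fell and 2 rose at 24 h, and 6 fell and 1 rose at 48 h. U2af2, which binds the pyrimidine tract, fell by 0.53 ± 0.10 (adjusted p = 0.000404) at 24 h, and Rbm5, a regulator of splice site pairing, rose by 0.82 ± 0.12 (adjusted p = 2.02e-05). Of the 29 genes of the Prp19 complex and the catalytic steps 5 fell and 1 rose at 24 h, and 5 fell and 3 rose at 48 h. These counts lie near or under the shares of all tested genes. Among them Syf2 rose by 0.58 ± 0.12 (adjusted p = 0.000733) at 24 h.

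The list of SR kinases and SR-related proteins held more rises than falls at 24 h, with 7 (26.9%) and 3 (11.5%) of 26. At 48 h 8 rose (30.8%) and 7 fell (26.9%). Of all tested genes 17.8% rose and 17.4% fell at 24 h, and 23.4% and 23.9% at 48 h. Clk1, a nuclear kinase of SR proteins, went from 45.6 ± 6.90 in ON to 112 ± 3.67 in OFF24 and 85.1 ± 5.13 in OFF48 CPM, and rose by 1.29 ± 0.12 (adjusted p = 1.87e-07) at 24 h and by 0.89 ± 0.12 (adjusted p = 8.39e-06) at 48 h. The cytoplasmic SR kinases moved in opposite directions. Srpk2 went from 95.6 ± 4.21 in ON to 157 ± 3.10 in OFF24 and 184 ± 6.60 in OFF48 CPM, and rose by 0.72 ± 0.10 (adjusted p = 1.48e-05) and 0.95 ± 0.10 (adjusted p = 2.18e-07), while Srpk1 went from 99.6 ± 7.76 in ON to 59.2 ± 8.27 in OFF24 and 45.4 ± 1.64 in OFF48 CPM, and fell by 0.74 ± 0.12 (adjusted p = 9.32e-05) and 1.12 ± 0.13 (adjusted p = 5.96e-07). Of the 35 other RNA-binding regulators 8 rose (22.9%) and 7 fell (20%) at 24 h, and 8 rose and 8 fell at 48 h (22.9% each). There Fubp1 fell by 0.79 ± 0.11 (adjusted p = 1.87e-05) and 1.13 ± 0.11 (adjusted p = 1.35e-07), and Cirbp, a cold-induced RNA-binding protein, rose by 0.80 ± 0.12 (adjusted p = 1.26e-05) at 48 h.

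**Figure D4:**
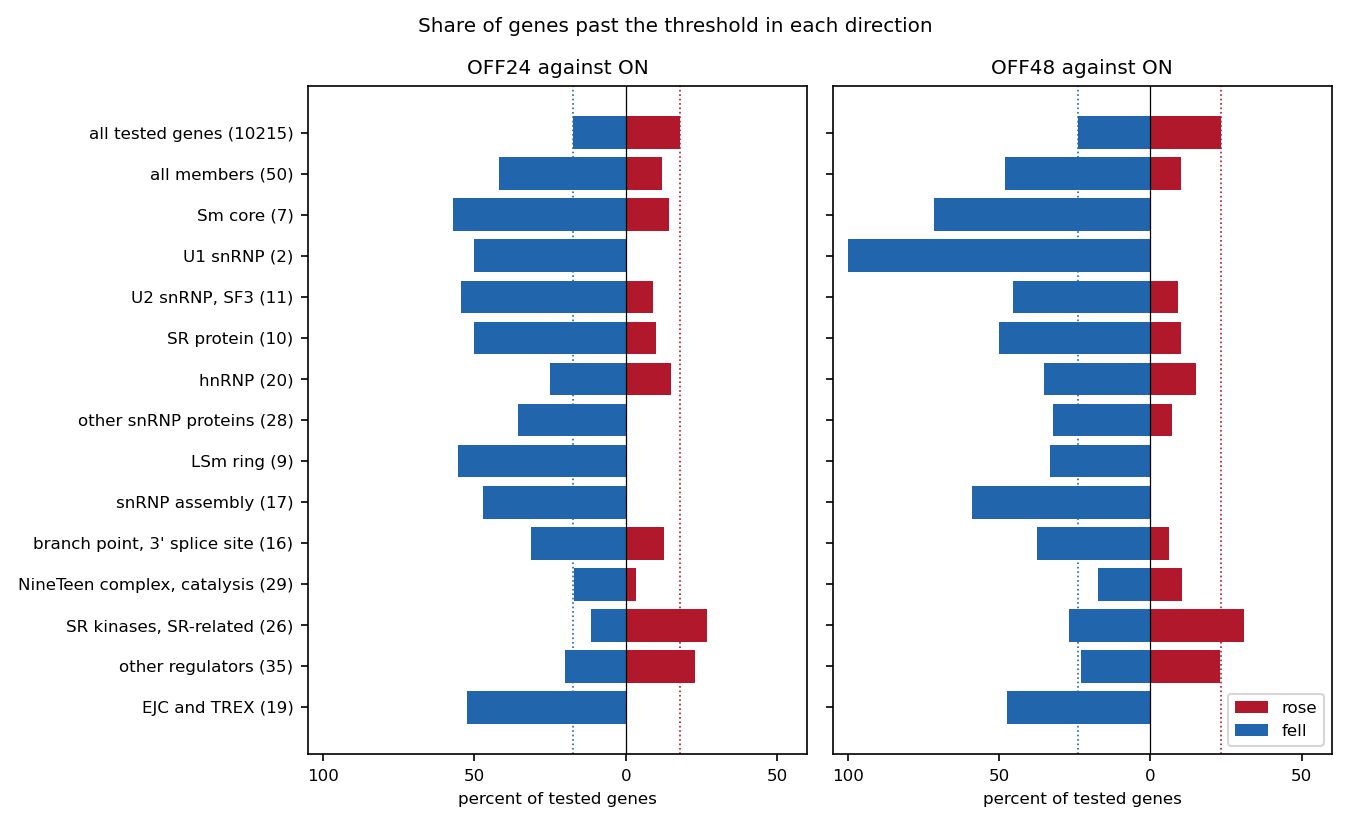
Percent of tested genes that fell (blue, left) or rose (red, right) in OFF24 and OFF48 against ON, for all tested genes, the members, their 5 classes and the 8 pathway lists (y axis, number tested in brackets), with dotted lines at the shares of all tested genes. The members, their 5 classes and most pathway lists extend left past the blue line at both times. The SR kinase list extends right past the red line at both times and left past the blue line at 48 h. The other regulators pass both lines at 24 h.

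Between 24 h and 48 h 6 of the 179 pathway genes rose and 11 fell, with a median of 0.04, where 9.99% of all tested genes rose and 11.2% fell. This count of 17 came to 9 with DESeq2, and to 8, 9, 7 and 9 without OFF24 replicate 1, 2 or 3 or OFF48 replicate 1.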

How the data were processed

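Counts were read from 9 libraries of the line described above, with groups and replicate numbers from the sample titles. Per the labels' protocols, TriZol, a column and DNase gave the RNA, and the Lexogen QuantSeq 3' kit the libraries. The submitters' processing notes name, without roles, HISAT2 2.0.4, featureCounts of Subread 1.5.0-p3, cutadapt 1.5, limma 3.42.2 under R 3.6.1, FastQC 0.11.2, bcl2fastq 2.17.1.14 and the build mm10. For the annotation, the strand setting and reads with several matches, the steps taken were not given in the sources used here. In the deposited count table the values are raw whole-number counts per symbol and library, with replicates kept apart, in 24756 rows of which 16962 have a count. A table of normalised log2 values deposited by the authors (10552 rows) served only as an alternative.

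The test was edgeR 4.0.16 under R 4.3.3: genes passing filterByExpr, TMM scaling, a robust quasi-likelihood fit with 1 mean per group over all 9 libraries (6 residual degrees of freedom, common biological coefficient of variation 0.105), and BH over all 10215 genes with a threshold of 0.05. The SE is the size of the log2 fold change divided by the square root of the F statistic. The code was tested on simulated data. The members and lists were chosen with earlier results of these data known. Values for every library are given for the 6 rises and 6 falls of largest size in each comparison with at least 10 CPM and no overlap, and for 13 genes fixed by name. Pairs of replicates differed beyond counting noise, with a chi-square of 1.99 to 6.99 per degree of freedom (genes of 20 or more counts per pair), and no libraries were identical. Library totals of 1329296 to 4038456 counts set the precision. Same-numbered ON and OFF48 libraries deviated together (correlations of 0.115 to 0.406, all above 0.1), with no shared origin in the labels, so fits with the replicate number as a block are given beside 48 h results whose call they change. Positions and 3' ends come from GENCODE M21 on GRCm38 (mm10). The last 400 bases of each member were compared with all transcripts, and matches of at least 95% identity over 100 bases were counted as shared. The 18 alternatives were 3 scalings, no filter, DESeq2 1.42.0, limma-voom and the authors' log2 table with limma 3.58.1, the groups compared alone, the replicate block, and leaving out each library.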

Additional observations from a re-analysis of the deposited data

Results flagged for a closer look

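For 8 members the change from ON at 48 h differed from that at 24 h, tested as OFF48 against OFF24 in the edgeR fit. The log2 difference of the 48 h change minus the 24 h change was -1.36 for Hnrnpa1, -0.92 for Snrpf, -0.48 for Hnrnpc, -0.38 for Sf3b1 and -0.33 for Srsf5. It was 0.43 for Sf3b4, 0.35 for Hnrnpf and 0.33 for Sf3b6. The 50 members gave 8 calls, 16% of them, where 21.1% of all tested genes were called in this comparison. Those of Hnrnpa1, Snrpf and Hnrnpc held in all 18 alternatives, and the other 5 were each lost in at least 1.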

How the results depend on the processing

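No called value of a member changed sign under any of the 18 alternatives, while 23 member values that were not called did, Hnrnpa1 and Hnrnpc at 24 h and Sf3b6 at 48 h among them. Pathway genes were rerun as counts only. Of the calls of members, 15 of 21 falls and 0 of 6 rises at 24 h, 19 of 24 falls and 3 of 5 rises at 48 h, and 3 of 5 falls and 0 of 3 rises from 24 h to 48 h held in all of them. The count of members risen at 24 h was 3 with no filter on low counts and 3 with DESeq2, where the main value was 6, and pathway genes called between 24 h and 48 h were 9 with DESeq2, where the main value was 17. The cause was not tested. With 1 library left out in turn, members risen came to 0 to 6 at 24 h, 3 to 5 at 48 h and 1 to 5 from 24 h to 48 h. Members fallen came to 17 to 25, 21 to 25 and 3 to 7. Pathway genes called came to 56 to 75, 64 to 76 and 7 to 23, and all tested genes called to 2846 to 3900, 4180 to 4835 and 1506 to 2410. Such fits leave 1 group with 2 libraries.

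With the replicate block, members risen and fallen were 7 and 25 at 24 h, 5 and 29 at 48 h, and 5 and 7 from 24 h to 48 h, and pathway genes called in the last comparison were 26. Over all 3 comparisons deviations of libraries with the same number correlated at -0.0149 to 0.406, and 4 of 9 libraries correlated best with their own number. For ON and OFF48 all 3 pairs lay above 0.1, and the block changed no call of a member at 48 h other than the 5 given beside their values. The other comparisons have pairs under 0.1. Upper quartile scaling gave 7 rises and 18 falls of members at 24 h. All 50 tested members had at least 37 counts in each library, and a 0 as for Srsf12 allows up to 3 counts. For Snrpn that limit need not hold, since the counting of reads in overlapping genes is not stated.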

Other observations

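Among pathway genes outside the named rule, the splicing kinase gene Clk4 and Rsrp1, an SR-related gene, were singled out after their values were seen. Rsrp1 stood at 378, 258 and 384 CPM in ON, 1295, 976 and 1029 in OFF24 and 736, 444 and 712 in OFF48. All OFF libraries lay above all ON libraries and OFF24 above OFF48. Its log2 fold change was 1.69 ± 0.21 at 24 h (edgeR, adjusted p = 9.01e-05), the largest rise of the list of SR kinases and SR-related proteins at that time, and 0.90 ± 0.21 at 48 h (adjusted p = 0.00375). Clk4 rose by 0.76 ± 0.13 (adjusted p = 0.000243) and 0.53 ± 0.14 (adjusted p = 0.00391).

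Of the 50 tested members, 10 had their lowest value in replicate 2 of every group (Hnrnpa2b1, Hnrnpa3, Hnrnph3, Hnrnpu, Snrpg, Srsf1, Srsf10, Srsf11, Sf3b3 and Snrpa1), 1 in replicate 1 (Hnrnpul1) and 1 in replicate 3 (Hnrnpdl). The share of all tested genes with such a pattern was not computed, so these counts are not read as a trait of the members. Over all tested genes, deviations of the replicate 2 libraries correlated at 0.202 (ON and OFF24), 0.406 (ON and OFF48) and 0.177 (OFF24 and OFF48).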
